A study of Homo sapiens with 12 samples.

Results

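The bypass receptor tyrosine kinases described here were 10 genes, MET, AXL, IGF1R, INSR, FGFR1, FGFR2, FGFR3, PDGFRA, KIT and ROR1, chosen by name from the 60591 genes of a read count table. They were followed across 12 RNA-seq libraries in 6 groups of 2. PC9 and H1650 are established lung adenocarcinoma cell lines, each with genotype labelled wild-type and each described as carrying the activating EGFR deletion delE746-A750. In each line the groups were T0, collected at 0 h in 0.1% DMSO when drug was added, erlotinib (10 μM, 36 h) and osimertinib (0.1 μM, 36 h). Erlotinib is a reversible and osimertinib a covalent inhibitor of the EGFR kinase. No vehicle library of 36 h was analysed here, so a change against T0 holds the drug and the time in culture together, and these cannot be told apart. Each line stands for 1 genetic background, and p-values measure the spread between samples labelled as replicates.

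Receptor tyrosine kinases are single-pass membrane proteins that bind a ligand outside the cell, pair up and phosphorylate each other, and the phosphorylated tails recruit adaptors that feed the RAS-MAPK and PI3K-AKT pathways. When EGFR is blocked, another receptor of this class can supply the same downstream signal, which is why MET, AXL, IGF1R and FGFR members are known as bypass receptors in EGFR-mutant lung cancer. MET binds HGF, AXL binds GAS6, IGF1R and INSR bind insulin-like growth factors and insulin, FGFR1 to FGFR3 bind fibroblast growth factors, PDGFRA binds PDGF chains, KIT binds stem cell factor (KITLG), and ROR1 is a pseudokinase receptor for WNT5A. A count of mRNA reads says nothing of receptor protein, its activation or its splice forms.

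The libraries held 17961765 to 26346187 reads assigned to genes, and 19108 genes passed the filter on low counts. All 10 members passed it, FGFR2, PDGFRA and KIT through H1650 alone. Levels are given as CPM (the read count scaled to a fixed library total) scaled by TMM, a library size correction. The 6 epithelial markers (EPCAM, CDH1 and 4 keratins) were read in every library, summing to between 6154 and 6197 CPM in erlotinib-treated H1650, the lowest group, and between 12473 and 13288 CPM in osimertinib-treated PC9, the highest. Mitochondrial genes took 4.37% to 5.36% of the counts at T0 and 5.77% to 7.20% after drug. The part of either in the member results was not tested. The 4 mast cell markers, checked because mast cells express KIT, had at most 1 read in any library, and the immune markers reported here reached 5 reads for PTPRC, 4 for CD3E, 11 for CD68 and 83 for CD14 (3.96 CPM). The 3 endothelial markers reached 32 reads for PECAM1, 48 for VWF and 62 for CDH5, summing to 0.193 to 1.56 CPM in H1650 and 2.42 to 5.54 CPM in PC9. Of the fibroblast markers, DCN and LUM had at most 1 read, while COL1A1 reached 44.7 CPM and COL3A1, at 0 in PC9, reached 19.8 CPM in H1650.

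The promoters of 4 members are shown because 2 of these genes, MET and INSR, rose in treated PC9 cells and 2, AXL and ROR1, fell. Each is the 250 bases before the RefSeq start (GRCh38.p14, strand of the gene). Capitals mark matches to GGGCGG, the GC box, on either strand, with overlapping matches joined. MET is from chr7:116671946-116672195 on the plus strand, INSR from chr19:7294415-7294664 on the minus strand, AXL from chr19:41218973-41219222 on the plus strand and ROR1 from chr1:63773767-63774016 on the plus strand.
MET: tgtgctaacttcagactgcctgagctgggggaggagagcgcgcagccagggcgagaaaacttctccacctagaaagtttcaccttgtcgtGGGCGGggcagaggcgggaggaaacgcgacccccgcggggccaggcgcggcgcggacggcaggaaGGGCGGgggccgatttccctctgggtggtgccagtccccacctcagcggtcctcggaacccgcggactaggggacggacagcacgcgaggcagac
INSR: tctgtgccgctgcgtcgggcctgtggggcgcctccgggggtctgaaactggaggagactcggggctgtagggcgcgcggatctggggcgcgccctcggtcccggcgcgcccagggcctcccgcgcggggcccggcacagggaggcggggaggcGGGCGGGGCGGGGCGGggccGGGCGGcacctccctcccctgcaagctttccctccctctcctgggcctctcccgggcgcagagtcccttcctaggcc
AXL: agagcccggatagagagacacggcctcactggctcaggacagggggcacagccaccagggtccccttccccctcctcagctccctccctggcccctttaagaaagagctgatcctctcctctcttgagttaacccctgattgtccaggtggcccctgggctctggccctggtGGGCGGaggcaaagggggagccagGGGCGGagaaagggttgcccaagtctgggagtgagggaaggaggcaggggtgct
ROR1: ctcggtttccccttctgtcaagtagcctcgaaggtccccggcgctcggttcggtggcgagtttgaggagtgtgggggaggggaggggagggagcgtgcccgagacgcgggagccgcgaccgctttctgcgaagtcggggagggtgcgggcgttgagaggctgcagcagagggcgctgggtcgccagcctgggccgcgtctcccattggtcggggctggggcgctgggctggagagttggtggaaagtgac

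MET and AXL each held 2 GC boxes, INSR held 4 and ROR1 held 0, where 42.6% of 35116 RefSeq windows of this length held at least 1. GC content was 68.4% for MET, 78.4% for INSR, 64.4% for AXL and 69.2% for ROR1. The other motifs searched on both strands were TGANTCA (AP-1), GTAAACA (FOXO), CACGTG (E-box) and CCGGAA (ETS core), held by 6.57%, 2.98%, 6.34% and 14.5% of all windows. None of these was in the 4 windows shown, which says only that these letters are absent there.

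The members differed widely in level before drug. Per kilobase of exon, the scale on which genes can be compared, AXL stood first in PC9 at T0 at 109 and 113 CPM per kb, MET second at 85.6 and 89.9, and ROR1 came after them at 8.51 and 9.10. AXL and MET together made up most of the summed level of the 10 members in PC9, AXL 51.1% to 51.2% and MET 40.2% to 40.5%. IGF1R followed at 5.96 and 6.33, then FGFR3, FGFR1 and INSR, and FGFR2, PDGFRA and KIT had 0 reads. No 2 neighbours among the 7 genes with reads overlapped. In H1650 at T0 the order began with MET at 50.9 and 51.0 CPM per kb, AXL at 27.99 and 29.8 and FGFR2 at 9.82 and 10.2. FGFR1, FGFR3, IGF1R, ROR1, KIT, INSR and PDGFRA came after it, and only IGF1R (2.82 and 2.92) and ROR1 (2.59 and 2.89) overlapped as neighbours. Exon length is that of all annotated exons in the table, so a gene with long exons that these cells do not use, such as a long 3' end, is set too low on this scale.

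**Figure D1:**
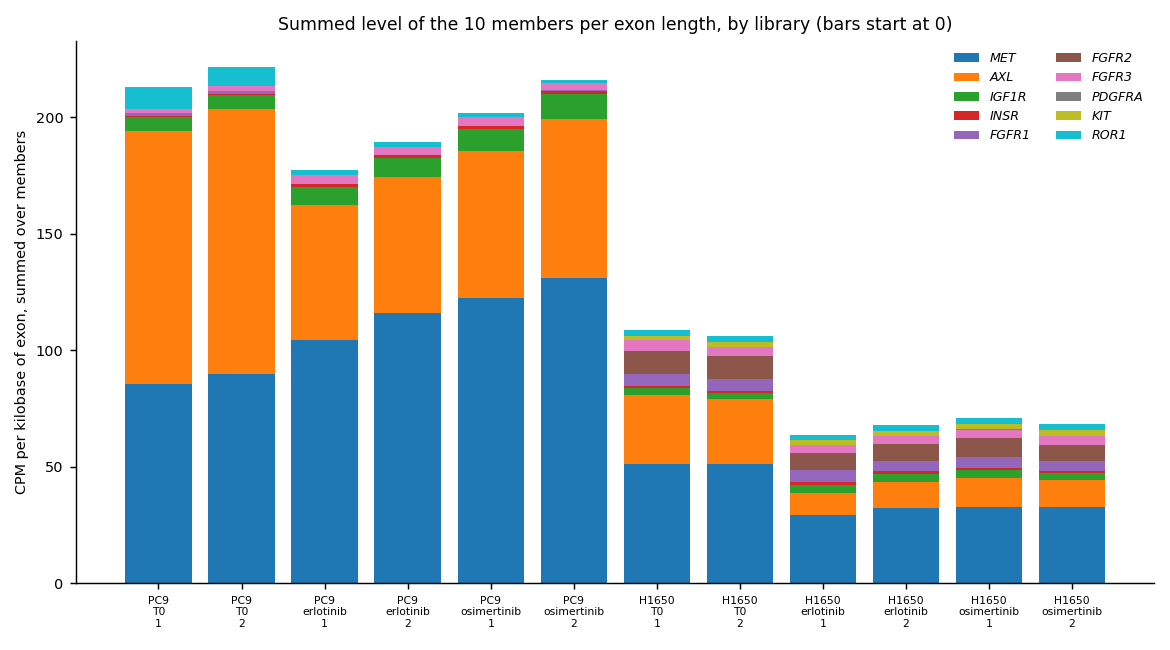
Summed level of the 10 members in each of the 12 libraries, in CPM per kilobase of exon (vertical axis), with 1 bar per library stacked by gene. MET and AXL fill most of every bar, the AXL part shrinks in all treated libraries, and the summed level of H1650 drops from 106.1 to 108.6 at T0 to between 63.5 and 71.0 after drug.

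After drug the summed level in PC9 moved from 212.7 and 221.7 CPM per kb at T0 to 177.4 and 189.3 with erlotinib and 201.6 and 215.8 with osimertinib. MET became the first gene, at 58.7% to 61.2% of the sum with erlotinib and 60.7% to 60.8% with osimertinib, and AXL fell to second at 30.9% to 32.7% and 31.2% to 31.6%. In H1650 the share of MET stayed between 45.7% and 48.0% in all 6 libraries, while the share of AXL went from 26.4% to 27.4% at T0 to 15.3% to 16.7% with erlotinib and 17.3% to 17.4% with osimertinib. In treated PC9 the order of ROR1 and INSR overlapped with osimertinib, at 1.42 and 1.66 against 1.08 and 1.48. In treated H1650, FGFR3 overlapped IGF1R and KIT overlapped ROR1 with erlotinib, and ROR1 overlapped KIT with osimertinib.

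In PC9 all 7 members with reads changed with each drug. MET, IGF1R, INSR and FGFR3 rose and AXL, FGFR1 and ROR1 fell, in both comparisons, which share the T0 libraries. A member is called here when its Benjamini-Hochberg adjusted p over all tested genes was under 0.05 in edgeR's quasi-likelihood test, which gives every adjusted p below. Of all tested genes, 61.8% were called with erlotinib and 61.4% with osimertinib, so a call alone sets no member apart. The median log2 change of the 7 was 0.33 with erlotinib and 0.53 with osimertinib, beside 0.07 and 0.06 over all genes. With 4 members higher and 3 lower, that median is the change of MET, the smallest rise, and does not describe a shift of the set. The median absolute change of all genes was 0.69 and 0.71. In bulk libraries fewer cells that express a gene and less of its RNA per cell cannot be told apart.

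In H1650, 7 of the 10 members were called with erlotinib, 2 higher (INSR and KIT) and 5 lower (MET, AXL, FGFR2, FGFR3 and ROR1), against 36.5% of all genes. With osimertinib 5 of 10 were called, INSR and KIT higher and MET, AXL and FGFR2 lower, against 35.7% of all genes. The median log2 change of the 10 was -0.33 and -0.13, with 0.01 and 0 over all genes. The erlotinib count moved with the libraries used. It was 4 without erlotinib replicate 1, without erlotinib replicate 2 or without T0 replicate 2, 5 without T0 replicate 1, and 4 of 9 in DESeq2. The osimertinib count was 4 without any 1 library.

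**Figure D2:**
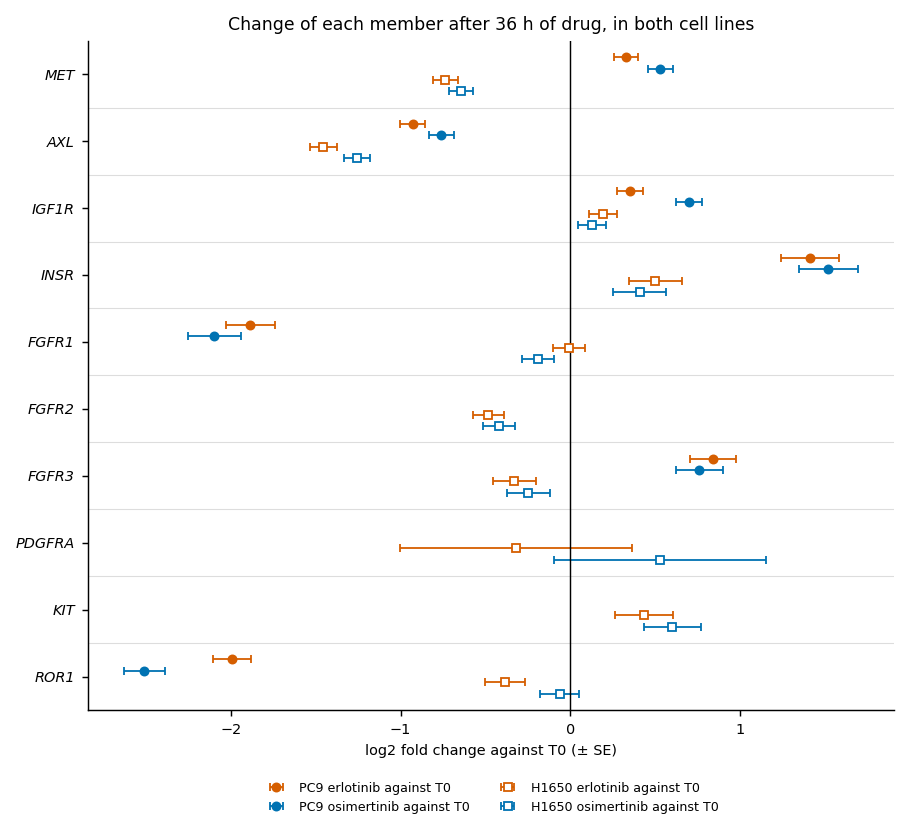
Log2 fold change against T0 of each member (horizontal axis, point ± SE of the edgeR fit, 2 libraries a group), for erlotinib and osimertinib in PC9 (filled circles) and H1650 (open squares). MET and FGFR3 lie right of 0 in PC9 and left of 0 in H1650, FGFR1 and ROR1 are far left in PC9 alone, and FGFR2, PDGFRA and KIT have no PC9 value because they had 0 reads there.

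MET, the HGF receptor (chr7:116672390-116798386, plus strand, GRCh38, GENCODE 29), moved in opposite directions in the 2 lines. In PC9 it read 619 and 649.9 CPM at T0, 754 and 838 with erlotinib and 886 and 948 with osimertinib. In H1650 it read 369 and 368 at T0, 209.8 and 233 with erlotinib and 237 and 235 with osimertinib. No treated library overlapped its own T0 in either line. MET rose 1.25-fold in PC9 with erlotinib (log2 change 0.33 ± 0.07 SE, adjusted p = 0.000262) and 1.45-fold with osimertinib (0.53 ± 0.07, adjusted p = 2.53e-07). In H1650 it was 1.67-fold lower with erlotinib (-0.74 ± 0.07, adjusted p = 5.34e-09) and 1.56-fold lower with osimertinib (-0.64 ± 0.07, adjusted p = 5.63e-08). The gap between the lines widened, from 1.72-fold higher in PC9 at T0 to 3.59-fold with erlotinib and 3.89-fold with osimertinib.

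AXL (chr19:41219203-41261766, plus strand), a receptor of the TAM family linked to the mesenchymal state, fell with both drugs in both lines. PC9 read 558 and 582 CPM at T0, 298 and 301 with erlotinib and 323 and 349.9 with osimertinib. H1650 read 153 and 144 at T0, 49.8 and 58.2 with erlotinib and 63.3 and 60.8 with osimertinib. Treated and T0 libraries were far apart in both lines, and even the treated PC9 libraries held more AXL than H1650 did at T0. The fall was 1.91-fold and 1.70-fold in PC9 with erlotinib and osimertinib (log2 -0.93 ± 0.07 and -0.76 ± 0.07) and 2.75-fold and 2.39-fold in H1650 (-1.46 ± 0.08 and -1.26 ± 0.08), with adjusted p between 4.26e-14 and 5.99e-10. An antisense gene, AC011510.1, shares 1.3% of the annotated AXL exon bases, and whether the counting used strand is not given in the sources used here.

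The insulin-type receptors rose in PC9. IGF1R (chr15:98648539-98964530, plus strand) read 83.0 and 88.3 CPM at T0, 108 and 111 with erlotinib and 132 and 147 with osimertinib. The 3 PC9 groups did not overlap, and the rise was 1.28-fold (0.35 ± 0.08, adjusted p = 0.000281) and 1.63-fold (0.70 ± 0.08, adjusted p = 7.33e-09). In H1650 it read 40.7 and 39.3 at T0, 47.3 and 44.3 with erlotinib and 44.9 and 42.6 with osimertinib. Those small differences, 0.19 ± 0.08 (adjusted p = 0.07) and 0.13 ± 0.08 (adjusted p = 0.251), did not pass. The erlotinib difference did pass with a replicate block (adjusted p = 0.0269), upper quartile scaling (0.0431) or at least 10 counts in every library (0.0279).

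INSR (chr19:7112255-7294034, minus strand), the insulin receptor, was the lowest of the members read in PC9 at T0 and rose more than MET, IGF1R or FGFR3 there. It read 4.84 and 4.79 CPM at T0, 12.5 and 13.1 with erlotinib and 11.8 and 16.03 with osimertinib, from 96 and 97 reads to between 254 and 335. That was 2.66-fold (1.41 ± 0.17, adjusted p = 3.65e-08) and 2.87-fold (1.52 ± 0.17, adjusted p = 1.05e-08). H1650 read 9.19 and 7.95 at T0, 11.6 and 12.6 with erlotinib and 12.5 and 10.2 with osimertinib. The H1650 rises, 1.42-fold (adjusted p = 0.0134) and 1.33-fold (adjusted p = 0.0449), were close to the threshold. The erlotinib call was lost without T0 replicate 2 (adjusted p = 0.134) or erlotinib replicate 2 (0.101) and in DESeq2 (0.0625). The osimertinib call was lost without T0 replicate 2 (0.273) or osimertinib replicate 1 (0.368), in DESeq2 (0.142), under RLE scaling (0.0526) and with no filter (0.063).

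**Figure D3:**
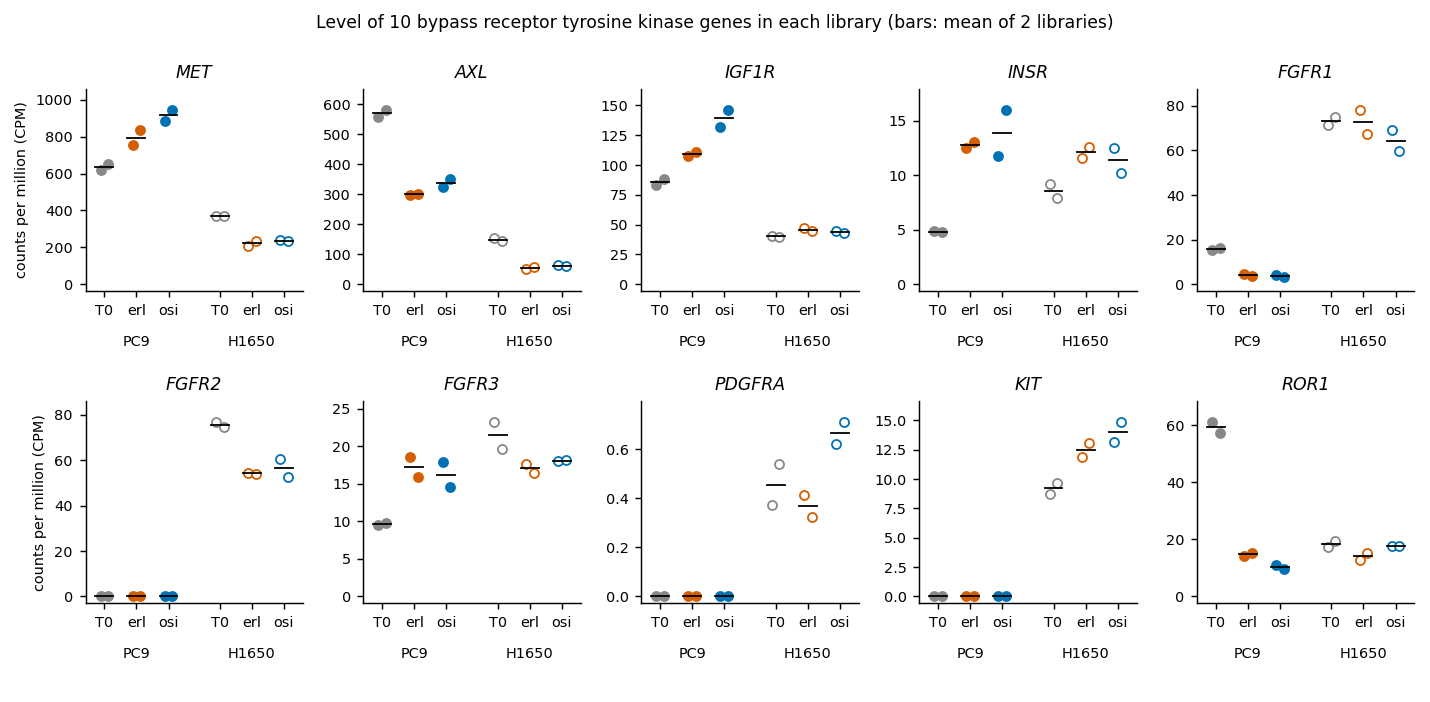
Level of each of the 10 members in CPM (vertical axis, linear, each panel with its own scale) in every library, by cell line and group, with erl for erlotinib and osi for osimertinib; points are libraries and bars the mean of 2. FGFR2, PDGFRA and KIT lie at 0 in all 6 PC9 libraries, and for INSR and FGFR3 the treated groups of both lines sit at like levels although T0 differed.

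The 3 fibroblast growth factor receptors behaved differently from one another. FGFR1 (chr8:38400215-38468834, minus strand) fell in PC9, from 15.1 and 16.3 CPM at T0 to 4.66 and 3.87 with erlotinib and 4.02 and 3.25 with osimertinib. The decrease was 3.70-fold (-1.89 ± 0.15, adjusted p = 2.38e-12) and 4.28-fold (-2.10 ± 0.16, adjusted p = 9.01e-13). In H1650, where its level was higher, FGFR1 read 71.6 and 75.0 at T0, 78.4 and 67.6 with erlotinib and 69.0 and 59.8 with osimertinib. The erlotinib libraries lay on both sides of T0 (log2 -0.01, 95% interval -0.20 to 0.19), and the osimertinib difference was -0.19 (-0.38 to 0.01, adjusted p = 0.13). LETM2 and the antisense gene AC087623.1 overlap 0.997% and 1.13% of the FGFR1 exon bases on the other strand.

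FGFR2 (chr10:121478334-121598458, minus strand) was read only in H1650. PC9 had 0 reads in 6 of 6 libraries, and a count of 0 allows up to 3 reads, or 0.117 to 0.168 CPM in these libraries, for counting error only. H1650 read 76.9 and 74.4 CPM at T0, 54.5 and 53.8 with erlotinib and 60.4 and 52.7 with osimertinib, with T0 above every treated library. The decrease was 1.40-fold (-0.48 ± 0.09, adjusted p = 0.000202) and 1.34-fold (-0.42 ± 0.09, adjusted p = 0.000824). Gene counts cannot tell the epithelial from the mesenchymal splice form of FGFR2.

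FGFR3 (chr4:1793293-1808872, plus strand) rose in PC9 and did not in H1650. PC9 read 9.48 and 9.72 CPM at T0, 18.5 and 15.97 with erlotinib and 17.9 and 14.5 with osimertinib. Both drugs lifted it clear of T0, 1.79-fold (0.84 ± 0.14, adjusted p = 4.46e-06) and 1.69-fold (0.76 ± 0.14, adjusted p = 2.51e-05). H1650 read 23.3 and 19.7 at T0, 17.7 and 16.4 with erlotinib and 17.99 and 18.1 with osimertinib. The H1650 decrease passed with erlotinib (-0.33 ± 0.13, adjusted p = 0.0411) but not without T0 replicate 1 (0.337), erlotinib replicate 1 (0.0766) or erlotinib replicate 2 (0.192), nor in DESeq2 (0.0797), under upper quartile scaling (0.0548) or with at least 10 counts in every library (0.0523), and it did not pass with osimertinib (-0.25 ± 0.13, adjusted p = 0.13). GENCODE 29 lists 3 FGFR3 pseudogenes, so reads shared with them make its level less certain.

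PDGFRA (chr4:54229097-54298247, plus strand) and KIT (chr4:54657918-54740715, plus strand), neighbouring class III receptors, had 0 reads in all PC9 libraries. In H1650 PDGFRA was at the limit of detection, with 8 and 14 reads at T0, 8 and 7 with erlotinib and 13 and 16 with osimertinib. Its changes, -0.32 ± 0.68 and 0.53 ± 0.62, were not detectable at this depth, and 15.8% of its exon bases are shared with a read-through gene on the same strand, AC058822.1. KIT read 8.77 and 9.69 CPM at T0, 11.9 and 13.04 with erlotinib and 13.1 and 14.9 with osimertinib, each treated library above T0. With osimertinib the rise was 1.52-fold (0.60 ± 0.17, adjusted p = 0.00654), lost without T0 replicate 1 (0.0582) or osimertinib replicate 2 (0.0845). With erlotinib it was 1.35-fold (0.43 ± 0.17, adjusted p = 0.0487) and was lost without any 1 of the 4 libraries (adjusted p 0.0852 to 0.24), in DESeq2 (0.195), under RLE scaling (0.0597) and with no filter (0.0905).

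ROR1 (chr1:63774022-64181498, plus strand) had the largest log2 change against T0 of the members. In PC9 it went from 61.2 and 57.2 CPM at T0 to 14.3 and 15.4 with erlotinib and 11.1 and 9.53 with osimertinib. That was a decrease of 3.98-fold (-1.99 ± 0.11, adjusted p = 4.51e-15) and 5.70-fold (-2.51 ± 0.12, adjusted p = 8.97e-17). H1650, which began lower, read 17.4 and 19.5 at T0, 12.9 and 15.3 with erlotinib and 17.8 and 17.6 with osimertinib. The erlotinib decrease passed (-0.38 ± 0.12, adjusted p = 0.0115) but not without erlotinib replicate 1 (0.191) or T0 replicate 2 (0.133), and with osimertinib the groups overlapped (-0.06, 95% interval -0.30 to 0.17).

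The next comparison asked whether the 2 lines answered a drug alike, by subtracting the PC9 response from the H1650 response within 1 model. Of the 7 members with reads in both lines, 6 differed with erlotinib and 7 with osimertinib, where 40.8% and 41.9% of all genes did. The T0 libraries of each line are shared by both drugs. For MET the difference was -1.06 ± 0.10 with erlotinib and -1.18 ± 0.10 with osimertinib on the log2 scale, from a rise in PC9 and a fall in H1650. FGFR3 gave -1.17 ± 0.19 and -1.01 ± 0.19, with a rise in PC9. Its decrease in H1650 was close to the threshold with erlotinib (adjusted p = 0.0411) and was not called with osimertinib. FGFR1 (1.88 ± 0.17 and 1.91 ± 0.19) and ROR1 (1.61 ± 0.16 and 2.45 ± 0.17) fell in PC9. In H1650 FGFR1 was not called with either drug, and ROR1 was called lower with erlotinib only. AXL fell more in H1650 (-0.53 ± 0.11 and -0.50 ± 0.11) and INSR rose more in PC9 (-0.91 ± 0.23 and -1.11 ± 0.24). IGF1R differed with osimertinib (-0.57 ± 0.11) but not with erlotinib (-0.16, 95% interval -0.39 to 0.08). The 13 called differences had adjusted p of at most 0.0023.

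The lines were also compared at each condition. At T0 the 7 members with reads in both lines all differed, with 69.6% of all genes called. FGFR2, PDGFRA and KIT passed the filter only through H1650, the line where they were read, so their difference between the lines is given as a description. MET, AXL, IGF1R and ROR1 were lower in H1650, by 1.72-fold, 3.84-fold, 2.14-fold and 3.21-fold, while FGFR1 was 4.67-fold, FGFR3 2.23-fold and INSR 1.77-fold higher. FGFR2 was at least 492-fold, KIT at least 58.0-fold and PDGFRA at least 2.47-fold higher in H1650, as the lowest H1650 library over the highest PC9 limit of 3 reads per library. Of the 7 members with reads in both lines, 4 were called after erlotinib, with 72.1% of all genes, and 5 after osimertinib, with 71.6%. FGFR1 became 17.2-fold and 17.5-fold higher in H1650. AXL stood 5.54-fold and 5.42-fold lower there, and IGF1R 2.39-fold and 3.19-fold lower.

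INSR, FGFR3 and ROR1 met between the lines after erlotinib. INSR read 12.5 and 13.1 CPM in PC9 and 11.6 and 12.6 in H1650 (log2 -0.08, 95% interval -0.40 to 0.23), FGFR3 differed by -0.01 (-0.28 to 0.25) and ROR1 by -0.07 (-0.32 to 0.18). After osimertinib FGFR3 (0.15, -0.11 to 0.42) and INSR (-0.29, -0.60 to 0.03, adjusted p = 0.0981) still did not pass, INSR passing without PC9 osimertinib replicate 1 (adjusted p = 0.0136) or H1650 osimertinib replicate 1 (0.0417). ROR1 crossed over with osimertinib. It was 3.21-fold higher in PC9 at T0 and 1.70-fold higher in H1650 after that drug (adjusted p = 3.95e-06).

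Erlotinib and osimertinib, both EGFR kinase inhibitors, were given at different doses, 10 and 0.1 μM, so their values stand side by side for these doses alone. In PC9, 3 of the 7 members with reads differed between them, with 16.6% of all genes called. IGF1R was 1.27-fold higher with osimertinib (0.35 ± 0.08, adjusted p = 0.00156), MET 1.15-fold higher (0.20 ± 0.07, adjusted p = 0.0487) and ROR1 1.43-fold lower (-0.52 ± 0.13, adjusted p = 0.00409). All 3 calls were lost without osimertinib replicate 2, leaving 0, and that of MET also without erlotinib replicate 1 (adjusted p = 0.417), with no filter (0.0552) and with 1 fit per line (0.0803). In H1650, 0 of 10 members were called in edgeR and 0 of 9 in DESeq2, with 8.75% of all genes. AXL (0.20, 95% interval 0.03 to 0.37) and ROR1 (0.32, 0.08 to 0.57) were 2 members with an unadjusted p under 0.05, and without erlotinib replicate 2 AXL was called (0.33, adjusted p = 0.0445).

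EGFR itself, the drug target, read 1164 CPM on average in PC9 at T0. It fell in PC9 by 0.79 ± 0.07 with erlotinib and 0.62 ± 0.07 with osimertinib on the log2 scale. In H1650 EGFR fell by 0.34 ± 0.07 with erlotinib (adjusted p = 0.000621) and was at 0.03 ± 0.07 with osimertinib (adjusted p = 0.816).

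The ligands of the members were read next, as a list of 21 genes of which 13 were tested. HGF had 0 reads in all 12 libraries, and IGF1 and IGF2 had at most 1 read in any library, so these ligands of MET and IGF1R were not detectable at this depth, with 3 reads worth 0.116 to 0.168 CPM. Of the 13, 9 rose and 3 fell in PC9 with erlotinib, 8 and 3 with osimertinib, and 2 and 4 in H1650 with each drug. These were 92.3%, 84.6%, 46.2% and 46.2% of the tested ligands, where 61.8%, 61.4%, 36.5% and 35.7% of all genes were called. The median change of those above the limit of 3 reads was 0.51 and 0.77 in PC9 and -0.09 and -0.14 in H1650. WNT5A, the ROR1 ligand, rose in PC9 from a mean of 124 CPM to 650.1 with erlotinib (log2 2.40 ± 0.07) and 782 with osimertinib (2.66 ± 0.07), in the libraries where ROR1 fell. In H1650 WNT5A read 42.2, 43.6 and 38.2 CPM on average (0.05 ± 0.08 and -0.14 ± 0.08, neither called), and the difference between the lines in this change was -2.35 ± 0.11 and -2.81 ± 0.11.

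GAS6, the AXL ligand, rose in PC9 from 76.8 to 99.1 and 130 CPM (0.37 ± 0.10 and 0.76 ± 0.10) and was not called in H1650 (-0.09 ± 0.12 and 0.08 ± 0.11). PROS1, a second TAM ligand, was read from 4 to 5 times at T0 in PC9 and 30 to 54 times after drug (2.92 ± 0.55 and 3.30 ± 0.55). KITLG, the KIT ligand, rose in PC9, which had no KIT reads, by 0.59 ± 0.08 and 0.54 ± 0.08, and in H1650 with osimertinib (0.44 ± 0.09) but not erlotinib (-0.05 ± 0.09). PDGFD rose in all 4 comparisons (2.22 ± 0.10 and 2.61 ± 0.10 in PC9, 1.40 ± 0.11 and 1.62 ± 0.11 in H1650). FGF2 fell in all 4 (-1.54 ± 0.17 and -1.63 ± 0.18, then -0.60 ± 0.09 and -0.24 ± 0.09). PDGFA fell in PC9 (-0.52 ± 0.11 and -0.40 ± 0.11) and was not called in H1650 (-0.14 ± 0.09 and -0.19 ± 0.09).

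Of 17 tested genes that bind the ligands or act as co-receptors, 5 rose and 9 fell in PC9 and 4 rose and 9 fell in H1650 with each drug, the medians being -1.44 (erlotinib) and -0.68 (osimertinib) for PC9, against -0.25 and -0.37 for H1650. The shares called were 82.4% in PC9 and 76.5% in H1650 with each drug, against 61.8% and 61.4%, then 36.5% and 35.7%, of all genes. IGFBP4 and IGFBP5, which bind insulin-like growth factors, went opposite ways in PC9. IGFBP5 went from a mean of 4.89 to 116 and 450 CPM (4.57 ± 0.13 and 6.52 ± 0.13) and IGFBP4 from 342 to 22.7 and 34.6 CPM (-3.91 ± 0.09 and -3.31 ± 0.08). In H1650 IGFBP5 rose by 1.67 ± 0.16 and 2.19 ± 0.15, while IGFBP4 changed by -0.48 ± 0.08 and -0.37 ± 0.08. CD44, a co-receptor of MET in some splice forms, fell in PC9 (-3.36 ± 0.07 and -3.19 ± 0.07) and in H1650 (-0.87 ± 0.07 and -0.57 ± 0.07). KL, a co-receptor for endocrine fibroblast growth factors, rose in PC9 (2.43 ± 0.18 and 3.38 ± 0.17) and had at most 4 reads in any H1650 library.

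Of 16 tested adaptors and substrates, 7 rose and 6 fell in PC9 with erlotinib and 6 and 6 with osimertinib, and 4 and 2, then 5 and 3, in H1650. The shares called, 81.2%, 75.0%, 37.5% and 50.0%, stood beside 61.8%, 61.4%, 36.5% and 35.7% of all genes, so the H1650 erlotinib share was near that of all genes. The medians lay between -0.02 and 0.06 in all 4 comparisons. GAB1, a docking protein for MET, rose in PC9 (1.21 ± 0.09 and 1.65 ± 0.09) and less in H1650 (0.23 ± 0.09 and 0.42 ± 0.08). GAB2 rose in PC9 (0.99 ± 0.11 and 1.21 ± 0.11) and was not called in H1650 (0.10 ± 0.19 and 0.01 ± 0.19). FRS2, the docking protein of FGF receptors, rose in PC9 (0.39 ± 0.09 and 0.51 ± 0.09) and not in H1650 (-0.17 ± 0.08 and -0.06 ± 0.08, neither called). IRS1, a substrate of IGF1R and INSR, fell in PC9 (-0.96 ± 0.09 and -0.46 ± 0.09) and in H1650 with osimertinib (-0.52 ± 0.12), at -0.29 ± 0.12 with erlotinib (adjusted p = 0.0509). IRS2 was not called in PC9 (0.17 ± 0.09 and 0.01 ± 0.09) and passed once, in H1650 with erlotinib (0.30 ± 0.11), where the T0 and treated libraries overlapped. PTPN11, the phosphatase SHP2, fell in all 4 (-0.97 ± 0.08, -1.13 ± 0.08, -0.54 ± 0.08 and -0.73 ± 0.08).

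**Figure D4:**
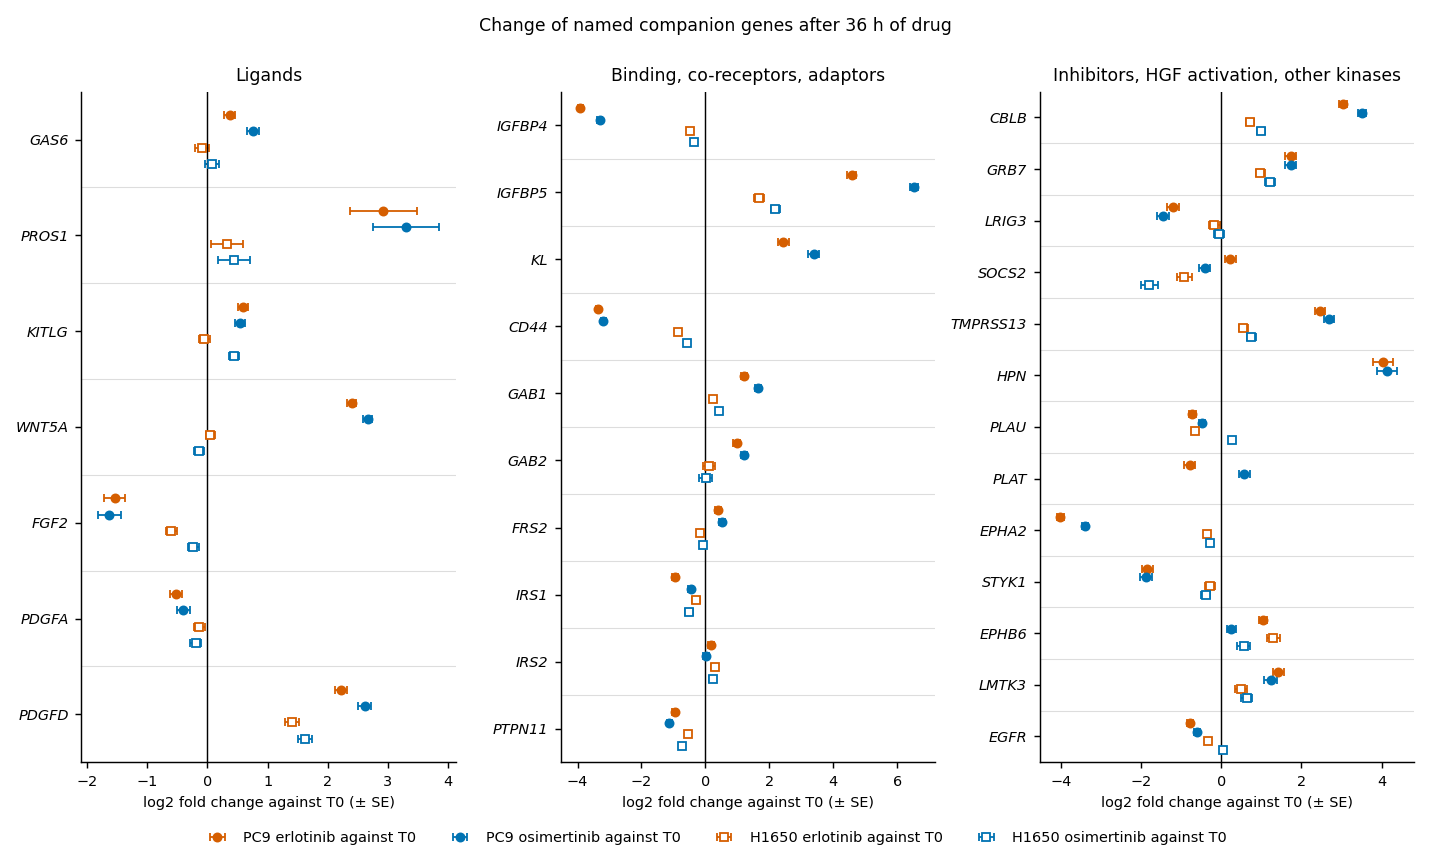
Log2 fold change against T0 (horizontal axes, point ± SE) of the named ligands, binding proteins, co-receptors, adaptors, inhibitors, HGF-processing genes, other receptor tyrosine kinases and EGFR, in PC9 (filled circles) and H1650 (open squares). WNT5A, IGFBP5, CBLB and TMPRSS13 lie far right in PC9 and nearer 0 in H1650, and CD44, IGFBP4 and EPHA2 far left in PC9; KL, HPN and PLAT have no H1650 points because a group there was at or under 3 reads.

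Inhibitors and turnover genes, 22 of 22 tested, gave 10 higher and 7 lower in PC9 with erlotinib, 7 and 11 with osimertinib, and 5 and 6, then 8 and 5, in H1650, with medians of 0.20, -0.42, -0.02 and -0.02. The shares called were 77.3%, 81.8%, 50.0% and 59.1%, beside 61.8%, 61.4%, 36.5% and 35.7% of all genes. The list mixes adaptors such as GRB7 with inhibitors, so its counts and medians do not measure inhibition or turnover. CBLB, a ubiquitin ligase that promotes receptor degradation, rose in all 4 (3.03 ± 0.10, 3.50 ± 0.10, 0.71 ± 0.10 and 0.99 ± 0.09), as did GRB7, an adaptor of this list (1.73 ± 0.14, 1.73 ± 0.14, 0.97 ± 0.12 and 1.21 ± 0.12). LRIG3 fell in PC9 (-1.21 ± 0.15 and -1.45 ± 0.15) and was not called in H1650 (-0.17 ± 0.13 and -0.06 ± 0.13). SOCS2 fell in H1650 (-0.93 ± 0.19 and -1.80 ± 0.21) and in PC9 with osimertinib (-0.42 ± 0.14), at 0.23 ± 0.13 with erlotinib (not called).

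Genes of HGF activation were read although HGF was not. This list holds proteases together with protease inhibitors (SPINT1, SPINT2 and SERPINA5), so its counts and medians do not measure HGF processing. Of 10, 5 rose and 3 fell in PC9 with erlotinib and 5 and 2 with osimertinib, and 3 and 1, then 6 and 0, in H1650. The shares called were 80.0%, 70.0%, 40.0% and 60.0%, beside 61.8%, 61.4%, 36.5% and 35.7% of all genes, near that of all genes in H1650 with erlotinib. The medians above the limit of 3 reads were 0.86, 1.13, 0.36 and 0.59. The membrane proteases TMPRSS13 (2.47 ± 0.13 and 2.68 ± 0.13) and HPN (4.05 ± 0.25 and 4.14 ± 0.25) rose in PC9. TMPRSS13 also rose in H1650 (0.55 ± 0.11 and 0.75 ± 0.10), where HPN had at most 1 read. PLAU fell in 3 comparisons (-0.72 ± 0.08, -0.47 ± 0.08 and -0.66 ± 0.08) and rose in H1650 with osimertinib (0.26 ± 0.07). PLAT fell with erlotinib (-0.79 ± 0.13) and rose with osimertinib (0.58 ± 0.13) in PC9.

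Receptor tyrosine kinases outside the 10 were read as a list that leaves out the ERBB receptors. ROR2 is in this list and in that of the co-receptors. Of 32 tested, 11 rose and 9 fell in PC9 with erlotinib and 12 and 10 with osimertinib. In H1650 the counts were 4 and 8, then 5 and 7. The shares called, 62.5%, 68.8%, 37.5% and 37.5%, were near those of all genes. EPHA2 fell from a mean of 292 to 17.9 and 27.6 CPM in PC9 (-4.02 ± 0.08 and -3.40 ± 0.08) and by far less in H1650 (-0.36 ± 0.07 and -0.29 ± 0.07). STYK1 also fell in PC9 (-1.85 ± 0.14 and -1.89 ± 0.15), and EPHB6 (1.04 ± 0.10 and 0.25 ± 0.11) and LMTK3 (1.43 ± 0.15 and 1.23 ± 0.15) rose there. In H1650 EPHB6 (1.30 ± 0.15 and 0.56 ± 0.16) and LMTK3 (0.49 ± 0.14 and 0.64 ± 0.14) rose as well, and STYK1 fell with osimertinib (-0.39 ± 0.12) and was at -0.29 ± 0.12 with erlotinib (adjusted p = 0.0577).

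The genes whose log2 CPM over the 12 libraries followed each member most closely, of 11705 searched, are given as a description, since the 12 points share 2 lines and 6 groups. For MET they were DYNC1H1 (Pearson's r = 0.998) and BIRC3 (0.996), and for AXL ARNTL2 (0.994) and OCIAD2 (0.993). IGF1R was followed by ARHGEF28 (0.996) and TNFRSF21 (0.994), and FGFR1 by XYLT1 and MICAL3 (0.997 each). INSR was followed less closely by PSAP and DDAH2 (0.972 each), FGFR3 by RRAS (0.959) and PTPN21 (0.956), and ROR1 by TSR1 and POLR2D (0.972 each). For FGFR2 (DYNLT3 and DSG3) and KIT (ZNF135 and DPYSL5) r rounded to 1, where the PC9 libraries of the member were all at 0.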

How the data were processed

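Poly(A) RNA from PC9 and H1650 cells was sequenced in 12 libraries, 2 for each of 6 groups taken from the labels. The authors deposited 1 table of featureCounts read counts per gene, made with a DolphinNext pipeline on GRCh38 per the labels. The aligner, annotation release and strand setting are not given in the sources used here. Raw counts were used as deposited, with all 12 count columns.

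The fit used edgeR 4.0.16 under R 4.3.3 (TMM, filterByExpr by group, quasi-likelihood test, 1 fit over all 12 libraries). P-values were adjusted by the Benjamini-Hochberg method over 19108 genes, with 41483 not tested, and the threshold was 0.05. The biological coefficient of variation was 0.0656. Replicates correlated at 0.995 to 0.996 in log2 CPM. Libraries held a median of 21581420.5 counts. A level of 3 reads per library was the limit where a gene had 0 reads, and no fold was given between 2 groups at or under it. Having 2 libraries a group limits the precision of each value. Members were found by symbol, and 9 of 10 matched a RefSeq promoter window (GRCh38.p14), of which the first listed was used. Positions and exon overlaps came from GENCODE 29.

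The members, lists and comparisons were chosen with earlier results of these data known. Named genes were the 10 members, EGFR, a set of main ligands and substrates, the 2 genes with the highest and 2 with the lowest mean change in each list (at least 5 CPM, called once), and the 2 genes most alike to each member with at least 5 CPM (Pearson on log2 of CPM + 0.5). SOS1 and SOS2 were not analysed here. The code was tested on simulated data. Alternatives were no filter, DESeq2 1.42.0, scaling by RLE or by the upper quartile, at least 10 counts in every library, 1 fit per line, a replicate block and leaving out each library.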

Additional observations from a re-analysis of the deposited data

Results flagged for a closer look

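The difference between the drug's change in H1650 and its change in PC9 was past the threshold for 13 member and drug pairs, each tested directly as an interaction in edgeR. Negative values mean a lower change in H1650. On the log2 scale MET gave -1.062 with erlotinib and -1.175 with osimertinib, AXL -0.5272 and -0.4961, INSR -0.9102 and -1.112, and FGFR3 -1.172 and -1.007. IGF1R gave -0.5729 with osimertinib. FGFR1 gave 1.879 and 1.909, and ROR1 1.609 and 2.448. No cause of these differences was tested, and time in culture cannot be told apart from drug in either line. With 2 libraries a group, outlying libraries were not tested.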

How the results depend on the processing

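Over 86 member results and 958 alternative values, 907 kept their direction and side of the threshold, 31 lost the call, 7 gained one and 13 changed sign. The PC9 comparisons with T0 and the drug-by-line differences kept their counts under each alternative run. Between the lines at T0, the 7 members with reads in both lines were called under each alternative run on all 12 libraries. In H1650 with erlotinib the count of 7 became 4 in DESeq2 and 4 to 5 without 1 library. Asking for at least 10 counts in every library removes FGFR2, PDGFRA and KIT by construction. The counts were then 5 for H1650 erlotinib and 3 for H1650 osimertinib, where they were 7 and 5 with these 3 genes. Between the lines these 3 genes are not counted, because they were tested through H1650 alone. Of the 7 members with reads in both lines, the 10-count filter gave 7 called at T0, 4 after erlotinib and 5 after osimertinib. In the main fit 69.6%, 72.1% and 71.6% of all genes were called in these comparisons. Osimertinib against erlotinib gave 0 to 3 in PC9 and 0 to 1 in H1650 without 1 library. Sign changes were all of values that were not called. FGFR1 in H1650 with erlotinib gave 0.00197 under upper quartile normalization, 0.0118 under the 10-count filter and -0.115 to 0.0888 without 1 library. Without 1 library ROR1 in H1650 with osimertinib ran from -0.137 to 0.0223. For osimertinib against erlotinib, INSR ran from -0.127 to 0.324 and FGFR3 from -0.246 to 0.0540 in PC9, and INSR from -0.243 to 0.0504 and FGFR2 from -0.0358 to 0.160 in H1650. Between lines after erlotinib FGFR3 ran from -0.122 to 0.0931 and ROR1 from -0.211 to 0.0473. The cause was not tested. Upper quartile scaling moved the median of all genes in PC9 from 0.0743 to 0.165 with erlotinib and from 0.0644 to 0.137 with osimertinib.

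Correlations of replicate differences between groups, over all tested genes, ran from -0.0615 to 0.166. Counting noise in each difference weakens such correlations, so they cannot decide whether the libraries were paired by replicate number. A replicate block added IGF1R in H1650 with erlotinib (0.1948, adjusted p = 0.0269) and AXL in PC9 osimertinib against erlotinib (0.1679, adjusted p = 0.0409) and lost no call.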
